A study of Mus musculus with 24 samples.

Results

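Megakaryocyte and platelet genes were followed through mouse bone marrow cells in which the chromatin remodeler gene Srcap was mutant or wild type (WT). The members are 36 listed genes of 55414 in all, found by gene symbol in the deposited count tables, where each matched 1 gene. They were listed for their function and with results of the series already known, with no cutoff on these values. They lie on 16 chromosomes, and 0 of them on X or Y. Srcap is the motor subunit of a remodeling complex that exchanges histone H2A for its variant H2A.Z, and the series title places its mutation in clonal expansion of blood cells and in DNA repair.

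The series measured messenger RNA in 24 libraries of sorted bone marrow cells from C57BL6/J mice. The labels give 16 as HSPCs, the stem and progenitor cells of the blood, 4 as B cells and 4 as T cells. The HSPC groups were Srcap mutant and WT cells in each of 4 conditions: untreated (labelled germline), 12 hours after intraperitoneal doxorubicin, a DNA-damaging chemotherapy drug, 2 weeks after transplantation, and 20 weeks after a competitive transplant. Each of these 8 groups has 2 libraries. B and T cell groups were Srcap mutant and WT cells taken 2 weeks after transplantation, with 2 libraries in each of 4 groups. The design text describes the 20-week cells as CD45.2+ donor cells, and the sources used here give neither recipients nor competitor cells. Of the mutation, the file headers give the word het for the untreated, doxorubicin and 20-week libraries and Mut for the 2-week ones. Those headers call the HSPC files LSK, the usual abbreviation for lineage-negative, Sca-1-positive, Kit-positive marrow cells. Samples are called independent without a statement that they are separate animals, so p-values measure only the spread between these libraries, which may be technical.

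Megakaryocytes are the large, polyploid marrow cells that shed platelets, and they arise both through bipotent progenitors shared with red cells and from stem cells that already carry platelet transcripts such as Vwf. Platelets bind von Willebrand factor and collagen through the GPIb-IX-V complex and GPVI, then switch the integrin of Itga2b and Itgb3 to a state that binds fibrinogen, and release adhesive proteins and chemokines from alpha granules. Other members, such as Rap1b, Plek, Fermt3 and Bin2, are used across blood cells.

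In HSPCs, 14 of the 36 genes were higher than in untreated cells at both times after transplantation, among them Gp5, Itga2b, Pf4, Selp and Vwf. Of all genes tested, 21.2% were called higher at 2 weeks and 13.1% at 20 weeks, each time alone, and the share called at both is not given. Of the 14 members, 4, namely Fermt3, Zfpm1, F2rl2 and Ltbp1, lost the 20-week call without edgeR's TMM scaling of libraries. At 2 weeks another 7, namely Gng11, Mmrn1, Itga2, Trpc6, Plek, Lat and Rap1b, were lower, against 24.9% of all genes. Between mutant and WT HSPCs 1 member, Gng11 at 2 weeks, passed the test, where 0.138% of all genes did. That call was lost without TMM scaling and with the 2-week HSPCs fitted alone. Averaged over the 4 conditions, 33 of 35 tested members had an estimate below 0, mutant over WT, against 51.2% of all genes. By edgeR 0 members passed the test in that average, against 0.133% of all genes. An unadjusted p under 0.05 was found for 14, against 9.88%, and DESeq2 called 4, with no share of all genes given for it. At 20 weeks alone 16 of 35 were below 0. The average mixes libraries headed het with the 2-week ones, headed Mut.

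Promoters of 5 members are printed because GATA and ETS factors are known regulators of platelet genes and because Gata1 and Gata2 changed in the same libraries. Each sequence, from RefSeq on GRCm38.p6, runs 5′ to 3′ on the gene's strand over the 250 bases before and 50 bases after the gene start. Capitals mark GATA matches (AGATAA or TGATAA) and ETS matches (AGGAAG or CGGAAG) on either strand. The regions are chr16:30310732-30311031 on the minus strand for Gp5, chr11:70638872-70639171 on the plus strand for Gp1ba, chr5:90772185-90772484 on the plus strand for Pf4, chr13:95696670-95696969 on the plus strand for F2rl2 and chr11:102469834-102470133 on the minus strand for Itga2b. The first 4 are the members with both motifs. They were printed for holding both and for being called higher at both times, so their matches follow from that choice. Itga2b was added without that condition and has ETS matches alone.
Gp5: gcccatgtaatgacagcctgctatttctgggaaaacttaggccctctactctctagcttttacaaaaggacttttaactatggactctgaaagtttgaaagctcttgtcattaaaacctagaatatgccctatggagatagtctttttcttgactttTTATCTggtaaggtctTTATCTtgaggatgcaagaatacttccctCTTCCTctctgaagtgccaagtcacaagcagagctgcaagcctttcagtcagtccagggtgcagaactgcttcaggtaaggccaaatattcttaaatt
Gp1ba: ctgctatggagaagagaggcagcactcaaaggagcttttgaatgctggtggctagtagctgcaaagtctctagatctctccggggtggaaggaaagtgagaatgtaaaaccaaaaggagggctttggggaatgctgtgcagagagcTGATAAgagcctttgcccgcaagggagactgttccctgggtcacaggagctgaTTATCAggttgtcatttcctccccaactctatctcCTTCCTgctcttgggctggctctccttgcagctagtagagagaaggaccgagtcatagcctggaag
Pf4: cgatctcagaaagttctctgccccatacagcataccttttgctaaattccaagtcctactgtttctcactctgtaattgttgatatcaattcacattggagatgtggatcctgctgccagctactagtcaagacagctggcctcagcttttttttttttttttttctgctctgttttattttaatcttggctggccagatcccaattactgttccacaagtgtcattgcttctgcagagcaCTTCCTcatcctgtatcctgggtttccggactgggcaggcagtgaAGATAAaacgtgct
F2rl2: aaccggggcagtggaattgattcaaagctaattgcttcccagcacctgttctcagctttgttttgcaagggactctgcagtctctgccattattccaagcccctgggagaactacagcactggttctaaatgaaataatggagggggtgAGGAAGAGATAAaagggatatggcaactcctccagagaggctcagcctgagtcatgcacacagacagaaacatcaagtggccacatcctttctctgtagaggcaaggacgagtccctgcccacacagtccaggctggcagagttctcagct
Itga2b: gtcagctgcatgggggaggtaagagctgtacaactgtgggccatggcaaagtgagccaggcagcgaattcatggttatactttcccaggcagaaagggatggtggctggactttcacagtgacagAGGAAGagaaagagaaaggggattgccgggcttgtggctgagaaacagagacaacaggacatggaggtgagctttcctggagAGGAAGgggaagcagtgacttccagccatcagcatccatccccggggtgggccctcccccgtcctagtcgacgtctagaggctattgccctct

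Of the 36 members, 28 had a promoter in that table. A GATA match lay in 8 of the 28, against 18.6% of all 32851 promoters, an ETS match in 16 of the 28, against 46.5%, and both in 4 of the 28, against 7.7%. The Gp5 window holds GATA matches starting at -93 and -77 and an ETS match at -48, and that of Gp1ba holds GATA matches at -104 and -51 and an ETS match at -16. In F2rl2 the ETS match at -101 is followed directly, without overlap, by the GATA match at -95. Pf4 has its ETS match at -9 and its GATA match at 36, after the gene start, and Itga2b has ETS matches at -125 and -43. Other members higher at both times, namely Selp, Cavin2, Gp9, Zfpm1, Fermt3, F2r, Treml1 and Ltbp1, had no GATA match. GATA matches also lay in Mmrn1, which was lower at 2 weeks, in P2rx1 and Clec1b, called at neither time, and in Gp6, not tested. These are letter matches, and binding was not measured here. A link between the matches and the changes in level was not tested.

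Total counts ran from 26369992 to 78432483 per library, and 35 of the 36 members passed the filter on low counts in the HSPC fit, Gp6 being the exception. Srcap itself, counted over the whole gene and so no check of a small lesion, ranged from 2.83 to 14.4 CPM (counts scaled to the library total) in HSPC libraries and was called between genotypes in 0 of the 4 conditions, with log2 changes between -0.33 and 0.54. All 10 stem and progenitor markers were detected in every HSPC library, with a summed level of 1108 to 1489 CPM at 2 weeks, against 2850 to 3556 CPM untreated. The libraries labelled T cells went against their label: the 10 T and NK cell markers summed to 41.7 to 56.0 CPM there, below every other library, while the 12 neutrophil markers took 13.8% to 15.8% of counts. In libraries labelled B cells the 9 B and plasma cell markers, all detected, took 1.58% to 1.96%, against 0.403% to 0.934% in 2-week HSPCs. They took 1.59% to 2.99% in untreated and 6.16% to 10.6% in 20-week HSPCs, so their sum alone does not set the B cell libraries apart. One untreated library, WT replicate 1, had 2.41% of counts in neutrophil markers, against 0.0308% to 0.0531% in the other 3. By the headers the files lie in 3 directories, untreated with doxorubicin HSPCs, all 2-week libraries, and 20-week HSPCs. The female transcript Xist was at 320 to 1537 CPM in the 12 libraries of 2 weeks and at most 0.484 CPM in the other 12, so transplantation cannot be told apart from directory and, at 2 weeks, from the sex of the animals. Genotypes were compared within 1 directory.

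Levels between genes are compared per length, as TPM (counts scaled to exon length and to the library). Over the 16 HSPC libraries, 5 members had a median above 100 TPM: the small GTPase gene Rap1b (265 TPM), the membrane-curving adaptor gene Bin2 (168 TPM), Nfe2, a transcription factor needed for platelet release (136 TPM), the protein kinase C substrate gene Plek (113 TPM) and the integrin activator gene Fermt3, or kindlin-3 (104 TPM). A further 12 lay between 10 and 100 TPM, among them Pf4 at 23.6 TPM, Gp9 at 11.8 TPM and Itga2b at 11.1 TPM. Between 1 and 10 TPM were 13 members, such as Gp5 (3.66 TPM) and Vwf (3.10 TPM), and 6 were under 1 TPM: Tubb1, Alox12, Ltbp1, Clec1b, Gp1bb and Gp6. Ranges over libraries overlapped between neighbours in this order, as for Selp (2.31 to 36.7 TPM) and Itga2b (6.56 to 114 TPM). The receptor subunit gene Gp1bb shares 92.9% of its exon bases with Sept5 and Gm49601, and reads there are not assigned, so its low level is uncertain.

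**Figure D1:**
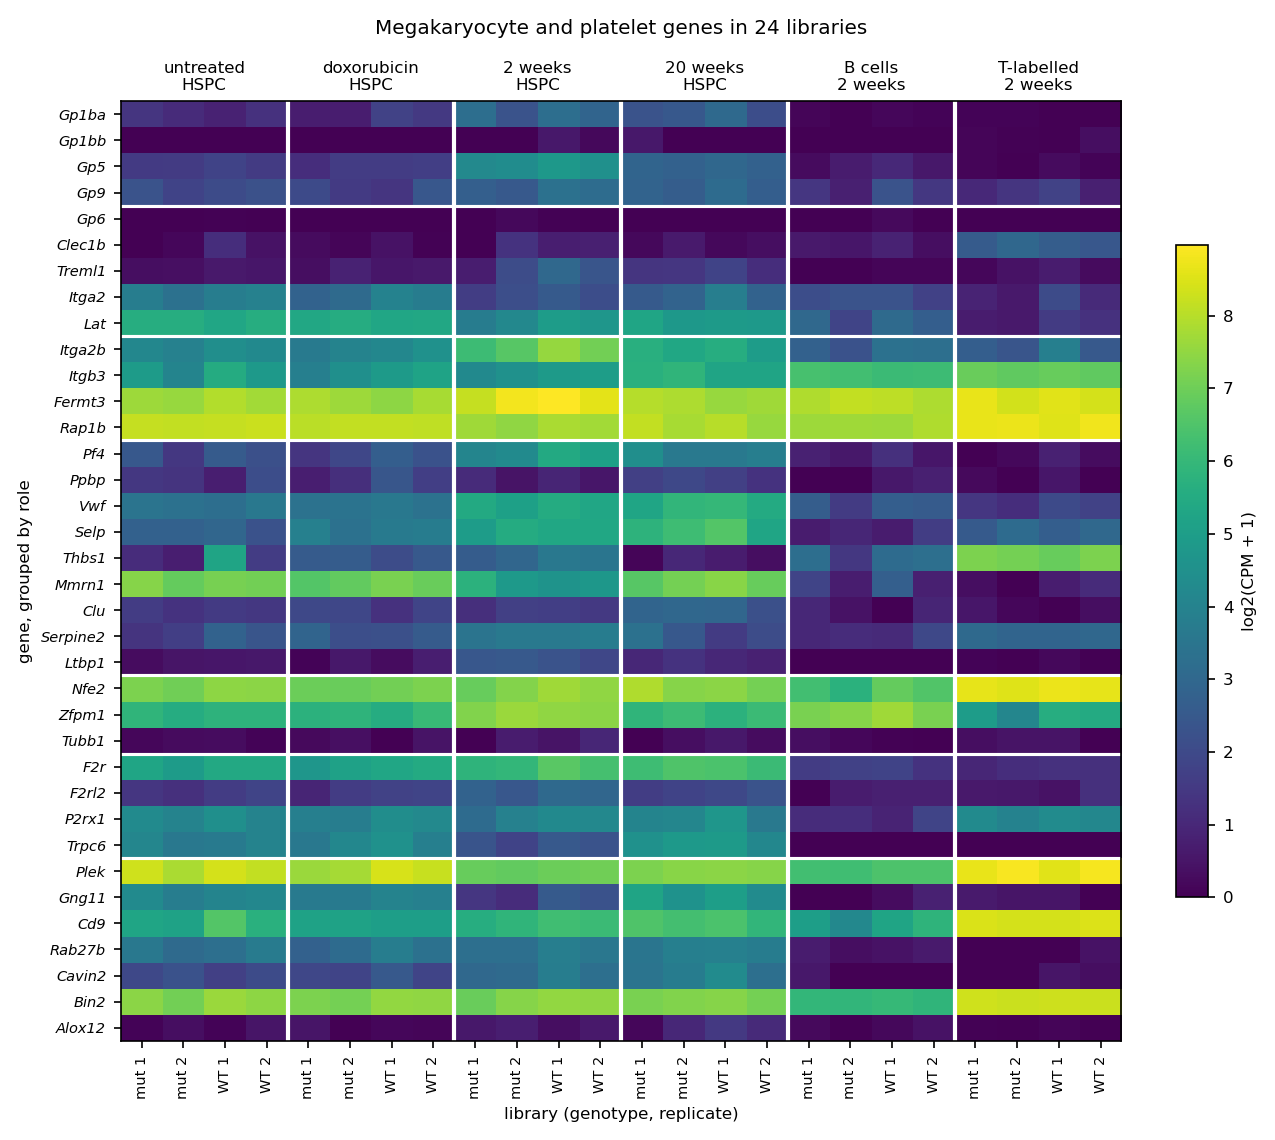
Level of the 36 members in each of 24 libraries as log2(CPM + 1) (colour), with genes in rows grouped by role and libraries in columns grouped by cells and condition, mutant left of WT. Gp5, Itga2b, Pf4, Vwf and Selp are brighter in the 2-week and 20-week HSPC columns than in the untreated ones, and Thbs1 and Cd9 are brightest in the libraries labelled T cells.

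At 2 weeks after transplantation, 15 members were higher and 7 lower than in untreated HSPCs, averaged over both genotypes, by edgeR's quasi-likelihood test. A call means a p below 0.05 after Benjamini-Hochberg adjustment across the 19522 genes of that fit. Of all genes tested, 21.2% were called higher and 24.9% lower. The median log2 change was 1.03 for the 35 tested members and -0.14 for all genes. Among the 31 members with a mean of at least 1 CPM, 15 had every 2-week library above every untreated one, against 23.2% of all such genes, and 7 had every 2-week library below, against 31.9%. In bulk libraries, more cells of a type and more RNA per cell cannot be told apart.

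At 20 weeks, 21 members were higher and 1, Plek, lower than in untreated HSPCs, against 13.1% and 10.6% of all genes. The median log2 change was 0.96 for members and 0.02 for all genes. TMM scaling, edgeR's correction for the makeup of each library, added 0.36 to each log2 change in this comparison. Without it 15 members were called higher and 4 lower, and the shares of all genes called are given with TMM scaling only. By CPM without that scaling, 14 of 31 members had all 20-week libraries higher, against 6.5% of all such genes, and 2, Lat and Plek, all lower, against 39.3%. The 14 again include Treml1 and Ltbp1. Both comparisons use the same 4 untreated libraries, so their values are set side by side and not taken as independent.

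The von Willebrand factor receptor complex was higher at both times in 3 of its 4 listed genes. Gp5, encoding the outer GPV subunit, had 1.88 and 1.98 CPM in mutant and 2.49 and 1.94 CPM in WT untreated HSPCs, 17.6 and 19.6 CPM in mutant and 26.9 and 21.9 CPM in WT HSPCs at 2 weeks, and 6.37 and 5.87 CPM in mutant and 7.02 and 5.95 CPM in WT HSPCs at 20 weeks. The libraries of the 3 conditions did not overlap. Its log2 change over untreated HSPCs was 3.45 ± 0.22 (SE) at 2 weeks and 1.96 ± 0.21 at 20 weeks (adjusted p = 1.53e-09 and 7.42e-06). Gp1ba, the subunit that binds von Willebrand factor, ranged over 3.94 to 8.48 CPM at 2 weeks, against 0.813 to 1.60 CPM untreated, and 3.38 to 7.48 CPM at 20 weeks. Both ranges lay above the untreated one, with log2 changes of 2.56 ± 0.35 and 2.30 ± 0.35 (adjusted p = 9.37e-06 and 0.000173). Gp9, the small partner of the complex, changed less, by 1.09 ± 0.31 and 1.26 ± 0.31 (adjusted p = 0.00696 and 0.00611), and the fourth gene, Gp1bb, had at most 0.486 CPM in any HSPC library and was not called.

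Receptors for collagen and related ligands moved unlike one another. Itga2, the alpha2 chain of a collagen-binding integrin, was lower at 2 weeks, with 2.07 and 3.41 CPM in mutant and 4.83 and 3.33 CPM in WT HSPCs, against 13.1 and 9.28 CPM in mutant and 12.9 and 14.4 CPM in WT untreated HSPCs. All 4 of the 2-week values lay below all 4 untreated ones (log2 change -1.81 ± 0.26, adjusted p = 1.25e-05), and the 20-week change of -0.41 did not pass the test except without TMM scaling (adjusted p = 0.0346). Lat, the adaptor downstream of GPVI that also serves T cell receptor signalling, was lower at 2 weeks (log2 change -1.06 ± 0.13, adjusted p = 2.75e-06), with 12.7 and 17.4 CPM in mutant and 30.04 and 25.2 CPM in WT HSPCs, against 38.3 to 47.4 CPM untreated. Its 20-week change of -0.21 passed the test only without TMM scaling (adjusted p = 0.00445).

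Treml1, an alpha-granule receptor of platelets, was higher at both times, by 3.22 ± 0.55 and 2.58 ± 0.54 (adjusted p = 9.71e-05 and 0.00208). It was low, at 0.663 to 7.21 CPM at 2 weeks, against 0.266 to 0.525 CPM untreated, and the 2-week change was 2.47 without mutant replicate 2. The podoplanin receptor gene Clec1b, at 0 to 1.52 CPM at 2 weeks, against 0 to 1.23 CPM untreated, did not pass the test at either time, and Gp6, encoding GPVI, reached at most 0.152 CPM.

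Itga2b, the alpha chain of the fibrinogen receptor, had 16.8 and 14.5 CPM in mutant and 20.7 and 17.99 CPM in WT untreated HSPCs, 70.5 and 99.2 CPM in mutant and 189 and 132 CPM in WT HSPCs at 2 weeks, and 49.3 and 40.01 CPM in mutant and 46.8 and 30.00 CPM in WT HSPCs at 20 weeks. It was higher at both times, by 2.83 ± 0.16 and 1.60 ± 0.15 on the log2 scale (adjusted p = 2.64e-10 and 2.28e-06), and its 20-week libraries lay between the other 2 sets. Its partner chain Itgb3, which also pairs with the alpha V chain, was at 18.3 to 31.1 CPM at 2 weeks, against 15.5 to 44.8 CPM untreated, and these ranges overlapped. At 20 weeks Itgb3 stood at 37.1 to 58.2 CPM and was higher by 1.03 ± 0.20 (adjusted p = 0.00179), though its lower libraries overlapped WT untreated replicate 1.

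Of the genes that switch integrins on, Fermt3 was higher at 2 weeks by 1.03 ± 0.13 (adjusted p = 4.74e-06), with 289 to 503 CPM, against 193 to 245 CPM untreated. Its 20-week call of 0.41 ± 0.13 (adjusted p = 0.0323) was lost without TMM scaling (adjusted p = 0.843) and on leaving out any 1 of 6 libraries, the 6 other than WT replicate 1 of each condition (adjusted p of 0.0554 to 0.222). Rap1b, which acts upstream of integrin activation, was lower at 2 weeks (log2 change -0.41 ± 0.10, adjusted p = 0.00221), with 180 to 227 CPM, against 281 to 302 CPM untreated.

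Alpha-granule and secreted proteins included some of the largest changes. The chemokine gene Pf4 had 4.61 and 1.76 CPM in mutant and 4.93 and 3.54 CPM in WT untreated HSPCs, 15.8 and 18.7 CPM in mutant and 42.4 and 33.1 CPM in WT HSPCs at 2 weeks, and 20.5 and 11.4 CPM in mutant and 11.5 and 13.5 CPM in WT HSPCs at 20 weeks. Both transplant sets lay above all untreated libraries, with log2 changes of 2.87 ± 0.29 and 2.29 ± 0.28 (adjusted p = 4.23e-07 and 3.94e-05). Ppbp, its neighbour on chromosome 5 and also a platelet chemokine, did not pass the test at either time, with 0.379 to 1.15 CPM at 2 weeks, against 0.682 to 3.31 CPM untreated, and 1.48 to 2.85 CPM at 20 weeks.

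Selp, encoding P-selectin, had the largest change of any called member at 20 weeks. It had 5.98 and 5.92 CPM in mutant and 6.77 and 3.79 CPM in WT untreated HSPCs, 30.5 and 44.9 CPM in mutant and 39.5 and 39.8 CPM in WT HSPCs at 2 weeks, and 55.1 and 71.8 CPM in mutant and 93.5 and 37.7 CPM in WT HSPCs at 20 weeks. Both transplant sets lay above all untreated libraries, with log2 changes of 2.87 ± 0.27 and 3.87 ± 0.28 (adjusted p = 2.81e-06 and 4.69e-06). Vwf, the ligand of GPIb, stood at 33.8 to 44.5 CPM at 2 weeks, against 8.58 to 11.2 CPM untreated, and 37.6 to 62.1 CPM at 20 weeks. These ranges did not overlap the untreated one either, with log2 changes of 2.13 ± 0.17 and 2.75 ± 0.17 (adjusted p = 1.34e-08 and 2.71e-08). Endothelium makes both proteins, and the 8 endothelial and stromal markers summed to 144 to 160 CPM at 2 weeks, against 173 to 194 CPM untreated, and 116 to 134 CPM at 20 weeks. Pecam1, which platelets and other blood cells also carry, made up most of that sum, at 113 to 128 CPM at 2 weeks, against 121 to 160 CPM untreated, and 92.7 to 106 CPM at 20 weeks. The endothelial cadherin gene Cdh5 had 0.0201 to 1.14 CPM at 2 weeks, against 0.982 to 1.94 CPM untreated, and 0.816 to 1.98 CPM at 20 weeks. Of the 8 markers, 7 at 2 weeks and 6 at 20 weeks were detected in every library, and the part of endothelial RNA was not tested.

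Mmrn1, encoding the factor V carrier multimerin, went the other way at 2 weeks. It stood at 53.1 and 28.1 CPM in mutant and 23.7 and 26.05 CPM in WT HSPCs, against 161 and 114 CPM in mutant and 138 and 133 CPM in WT untreated HSPCs, with no overlap (log2 change -2.01 ± 0.21, adjusted p = 3.24e-06). At 20 weeks it had 98.99 to 167 CPM, and the change of 0.28 did not pass the test and was -0.07 without TMM scaling.

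The latent TGF-beta binding protein gene Ltbp1 was higher at both times, by 3.42 ± 0.60 and 1.80 ± 0.57 (adjusted p = 0.000122 and 0.0287). Its level was 2.72 to 4.70 CPM at 2 weeks, against 0.228 to 0.477 CPM untreated, and the 20-week call was lost without TMM scaling (adjusted p = 0.0630) and without any 1 of 7 of the 8 libraries compared, mutant replicate 1 at 20 weeks being the exception (adjusted p of 0.0599 to 0.124). The thrombin inhibitor gene Serpine2 was higher at 2 weeks by 1.96 ± 0.31 (adjusted p = 3.53e-05), and the chaperone gene Clu at 20 weeks by 2.09 ± 0.33 (adjusted p = 0.000226). The matrix protein gene Thbs1 passed neither test with TMM scaling, and at 20 weeks was lower without it (adjusted p = 0.0286). WT untreated replicate 1 held 36.9 CPM of Thbs1, against 0.689 to 2.02 CPM in the other 3 untreated libraries.

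**Figure D2:**
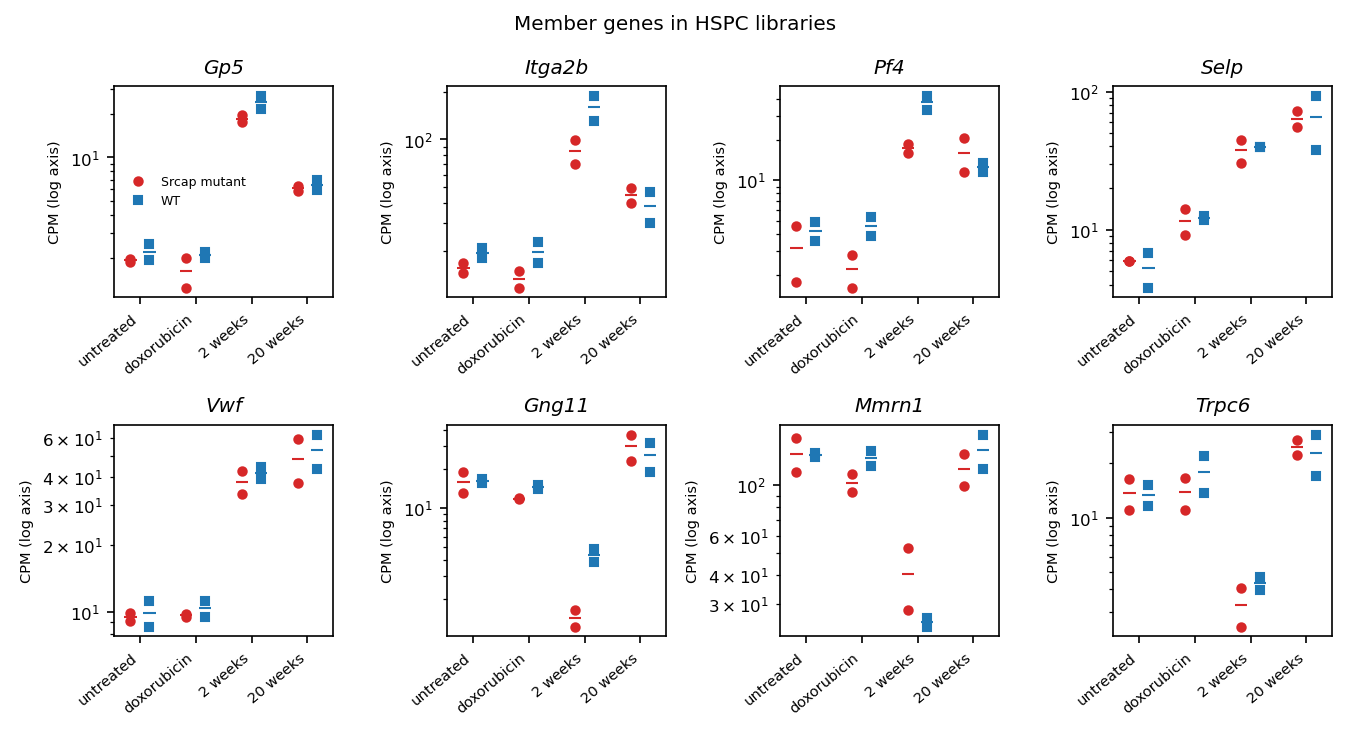
Level of 8 members in the 16 HSPC libraries, in CPM on a log axis that differs between panels, with mutant (red circles) left of WT (blue squares) in each condition and a bar at the mean of 2 libraries. Gp5, Itga2b and Pf4 have their highest libraries at 2 weeks, Selp and Vwf at 20 weeks, and Gng11, Mmrn1 and Trpc6 are lowest at 2 weeks.

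Among transcription and platelet formation genes, Zfpm1, encoding the GATA1 cofactor FOG1, was higher at both times, by 1.81 ± 0.14 and 0.60 ± 0.14 (adjusted p = 1.57e-08 and 0.00430). Its 2-week libraries had 154 to 198 CPM, against 46.7 to 56.96 CPM untreated, and its 20-week libraries, at 53.1 to 70.8 CPM, overlapped the untreated ones. The 20-week call was lost without TMM scaling (adjusted p = 0.191) and without WT replicate 2 at 20 weeks (adjusted p = 0.0588). Nfe2 changed by 0.16 at 2 weeks, which did not pass the test, and was higher at 20 weeks by 0.53 ± 0.11 (adjusted p = 0.00242, and 0.298 without TMM scaling). It had 118 to 205 CPM at 2 weeks, against 130 to 175 CPM untreated, and 137 to 237 CPM at 20 weeks, and these ranges overlapped. Tubb1, the beta-1 tubulin of the platelet's marginal band, stayed below 1 CPM in all HSPC libraries and was not called.

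The thrombin receptor gene F2r (PAR1) was higher at both times, by 1.03 ± 0.13 and 1.43 ± 0.13 (adjusted p = 2.89e-06 and 1.37e-06). Its libraries had 55.9 to 102 CPM at 2 weeks, against 29.6 to 41.9 CPM untreated, and 67.9 to 90.6 CPM at 20 weeks, above all untreated ones. Mouse platelets respond to thrombin through PAR3 and PAR4, and F2rl2, encoding PAR3, was higher at 2 weeks by 1.80 ± 0.33 (adjusted p = 0.000190), with 4.44 to 7.41 CPM, against 1.38 to 2.58 CPM untreated. Its 20-week call of 0.94 ± 0.32 (adjusted p = 0.0419) was lost without TMM scaling (adjusted p = 0.196) and on leaving out any 1 of 11 libraries, namely 7 of the 8 compared, WT replicate 1 at 20 weeks being the exception, and the 4 WT libraries of doxorubicin and 2 weeks (adjusted p of 0.0555 to 0.212). The ATP-gated channel gene P2rx1 passed neither test.

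The cation channel gene Trpc6 and the G protein gamma subunit gene Gng11 were lower at 2 weeks and higher at 20 weeks. Trpc6 had 16.4 and 10.96 CPM in mutant and 11.6 and 15.1 CPM in WT untreated HSPCs, 4.06 and 2.46 CPM in mutant and 4.66 and 3.94 CPM in WT HSPCs at 2 weeks, and 22.2 and 27.03 CPM in mutant and 28.95 and 16.9 CPM in WT HSPCs at 20 weeks. Gng11 had 18.8 and 13.00 CPM in mutant and 15.6 and 16.9 CPM in WT untreated HSPCs, 1.65 and 1.21 CPM in mutant and 4.86 and 3.83 CPM in WT HSPCs at 2 weeks, and 36.8 and 23.1 CPM in mutant and 31.9 and 19.1 CPM in WT HSPCs at 20 weeks. For both genes the libraries of the 3 conditions did not overlap. The log2 changes were -1.76 ± 0.24 and 1.16 ± 0.23 for Trpc6 (adjusted p = 6.53e-06 and 0.00124). They were -2.59 ± 0.20 and 1.13 ± 0.19 for Gng11 (adjusted p = 1.31e-08 and 0.000329).

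Of the remaining signalling and membrane genes, Plek was lower at both times, with log2 changes of -1.18 ± 0.12 and -0.50 ± 0.12 (adjusted p = 3.06e-07 and 0.00557). It had 112 to 131 CPM at 2 weeks, against 229 to 335 CPM untreated, and 148 to 168 CPM at 20 weeks, and without mutant untreated replicate 1 the 20-week adjusted p was 0.0544. Cavin2, a caveola coat gene, was higher by 1.65 ± 0.27 and 2.39 ± 0.28 (adjusted p = 6.37e-05 and 1.57e-05). At 20 weeks the tetraspanin gene Cd9 was higher by 0.96 ± 0.15 (adjusted p = 0.000180), although untreated WT replicate 1, at 93.5 CPM, lay above all 20-week libraries. Rab27b, a GTPase of granule secretion, was higher at 20 weeks by 0.71 ± 0.21 (adjusted p = 0.0180). That call was lost without TMM scaling (adjusted p = 0.229) and without any 1 of 4 libraries, untreated WT replicate 1 and mutant replicate 2 and 20-week WT replicate 2 and mutant replicate 2 (adjusted p of 0.0669 to 0.111). Bin2 and Alox12, the platelet 12-lipoxygenase gene, passed neither test.

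Between the transplant times themselves 18 members were higher at 20 than at 2 weeks and 8 lower, against 23% and 19% of all genes. The libraries of the 2 times also differ in header directory and in Xist, so time cannot be told apart from directory and sex. Without TMM scaling, for which no share of all genes is given, 10 were higher and 9 lower. Gng11 was higher at 20 weeks by 3.72 ± 0.21, Trpc6 by 2.92 ± 0.24, Mmrn1 by 2.29 ± 0.21, Clu by 1.91 ± 0.33 and Itga2 by 1.40 ± 0.25 (adjusted p of at most 0.000208). Gp5 was lower at 20 weeks (log2 change -1.49 ± 0.20), as were Itga2b (-1.23 ± 0.15) and Zfpm1 (-1.21 ± 0.14), each with an adjusted p of at most 1.14e-05. Vwf was higher by 0.61 ± 0.16 (adjusted p = 0.00429, and 0.0961 without TMM scaling). Pf4, at -0.58, did not pass the test with TMM scaling and was lower without it (adjusted p = 0.0161). Thbs1 was lower by the fit (log2 change -3.78 ± 0.94, adjusted p = 0.0107), a call lost without WT replicate 2 at 20 weeks (adjusted p = 0.0593), with a change of -5.12 without mutant replicate 2.

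**Figure D3:**
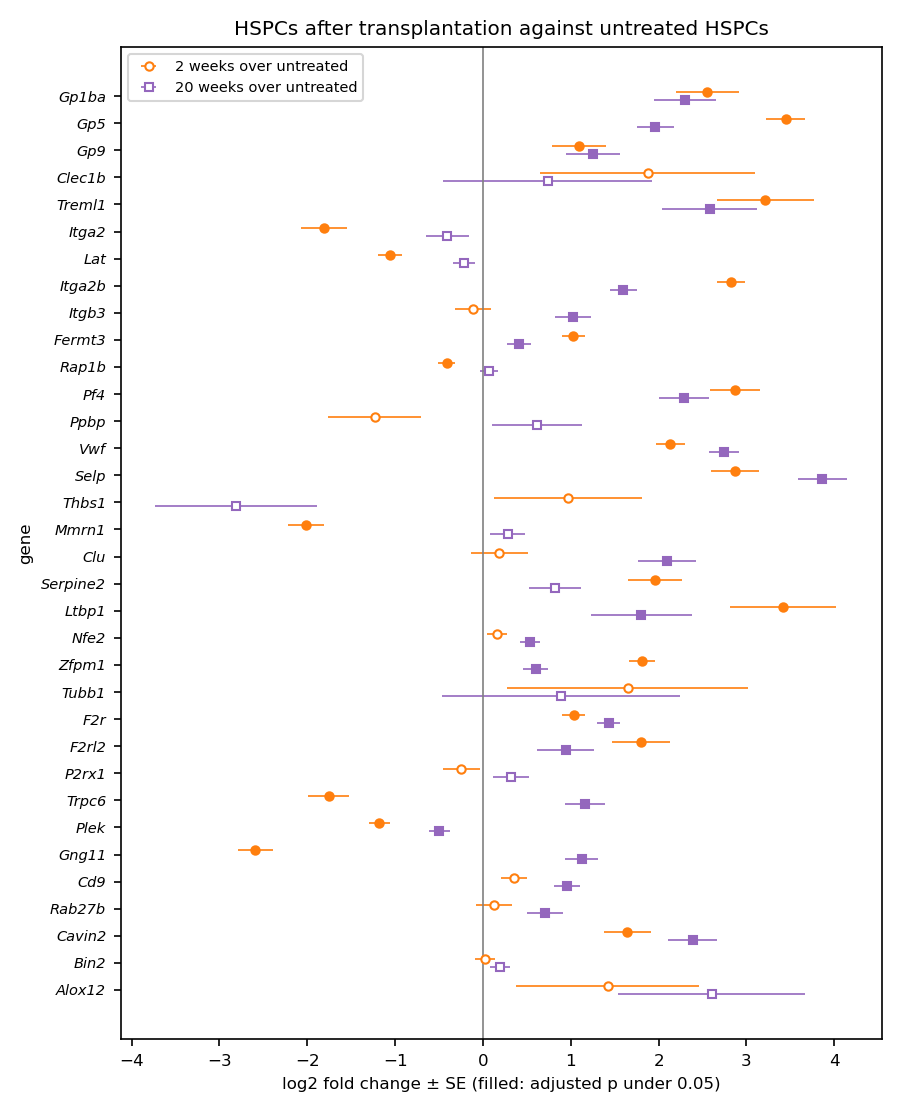
Log2 fold change ± SE of 34 members in HSPCs at 2 weeks (orange circles) and at 20 weeks (purple squares) over untreated HSPCs, with filled symbols for an adjusted p under 0.05. Gng11 and Trpc6 fall on opposite sides of 0 at the 2 times, and, without TMM scaling, the signs of Bin2 at both times and of Mmrn1, P2rx1 and Rap1b at 20 weeks turn, none of which was called. Both times share the untreated libraries.

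Other cell type markers differed between the same sets of libraries. The 12 erythroid markers summed to 2267 to 3286 CPM at 2 weeks, against 364 to 716 CPM untreated, and 479 to 609 CPM at 20 weeks. The 12 neutrophil markers took 0.549% to 0.946% of counts at 2 weeks, against 0.0308% to 0.0531% in the 3 untreated libraries other than WT replicate 1, and the 8 basophil and mast cell markers summed to 193 to 361 CPM at 2 weeks, against 22.3 to 133 CPM untreated. Every marker of these 3 lists was detected at 2 weeks, and their part in the member changes was not tested. Immunoglobulin genes took 16.9% to 26.7% of counts at 20 weeks, against 3.66% to 6.22% untreated. Leaving out WT untreated replicate 1 gave 17 members higher and 8 lower at 2 weeks, and 18 higher and 1 lower at 20 weeks.

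The wider platelet program was read from 56 further genes, 55 of them tested, also listed with earlier results known. Over untreated HSPCs, 18 were higher and 19 lower at 2 weeks, and 9 higher and 9 lower at 20 weeks. Of all genes, 21.2% were higher and 24.9% lower at 2 weeks, and 13.1% higher and 10.6% lower at 20 weeks. Without TMM scaling 5 of the further genes were higher and 26 lower at 20 weeks, so the split in direction there depended on that scaling. Gata1, the master factor of erythroid and megakaryocyte cells, had 2.21 and 2.42 CPM in mutant and 4.67 and 3.45 CPM in WT untreated HSPCs, 150 and 146 CPM in mutant and 155 and 149 CPM in WT HSPCs at 2 weeks, and 7.46 and 8.38 CPM in mutant and 7.42 and 5.42 CPM in WT HSPCs at 20 weeks. The libraries of the 3 conditions did not overlap, and Gata1 was higher by 5.70 ± 0.36 and 1.57 ± 0.32 (adjusted p = 5.60e-07 and 0.00544). Gata2, which acts earlier in stem cells, changed by 1.28 ± 0.15 and 1.10 ± 0.15 (adjusted p = 1.70e-06 and 7.10e-05). Gfi1b, a repressor required in both lineages, changed by 3.28 ± 0.14 and 0.73 ± 0.13 (adjusted p = 6.57e-12 and 0.000459). Tal1, a partner of GATA1 chosen after its values were seen, changed by 1.16 ± 0.11 and 0.63 ± 0.11 (adjusted p = 1.62e-07 and 0.000577, and 0.0738 at 20 weeks without TMM scaling).

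The ADP receptor gene P2ry1 and the tubulin gene Tubb2a were higher at 2 weeks by 2.47 ± 0.25 and 1.93 ± 0.24, and the thromboxane synthase gene Tbxas1 was lower (log2 change -1.29 ± 0.14), with adjusted p of at most 2.42e-06. The PAR4 gene F2rl3 was lower at 2 weeks (log2 change -0.53 ± 0.15, adjusted p = 0.00526, and 0.0604 without mutant untreated replicate 1) and higher at 20 weeks by 0.93 ± 0.14 (adjusted p = 0.000194). At 20 weeks the cyclooxygenase-1 gene Ptgs1 was higher by 0.88 ± 0.13 and the RNA-binding protein gene Rbm15 lower (log2 change -0.79 ± 0.13), with adjusted p of 9.92e-05 and 0.000439. The ADP receptor gene P2ry12 was lower there (log2 change -1.69 ± 0.50, adjusted p = 0.0192), a call lost without untreated mutant replicate 2 and without WT or mutant replicate 1 at 20 weeks (adjusted p of 0.0625 to 0.0881).

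**Figure D4:**
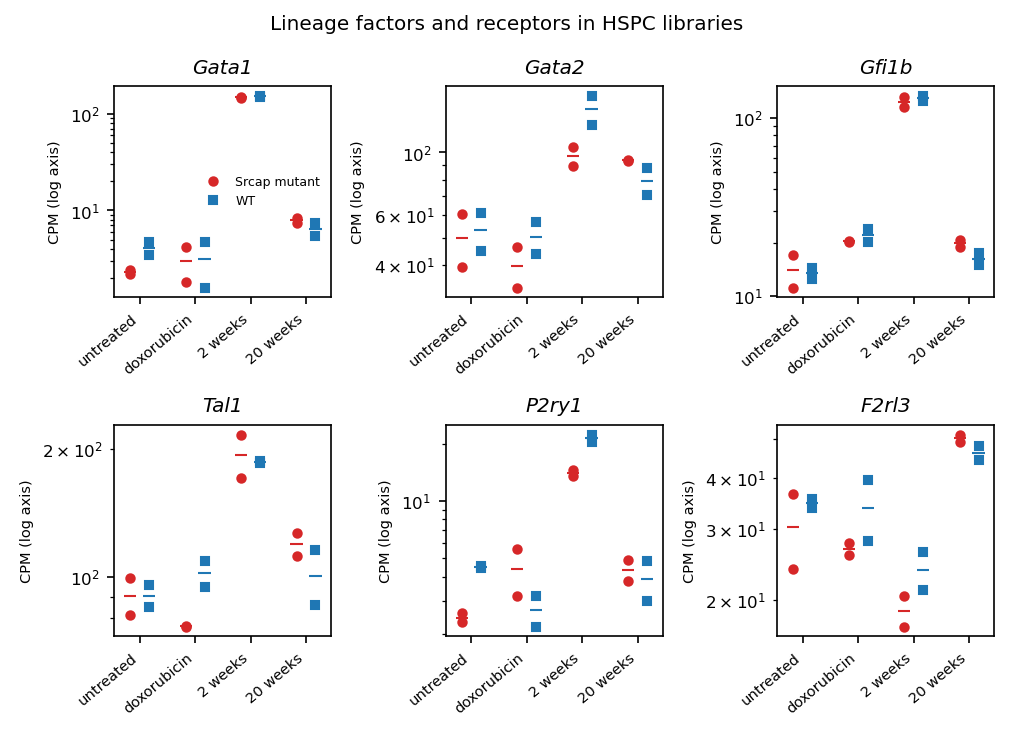
Level of 6 further genes (Gata1, Gata2, Gfi1b, Tal1, P2ry1 and F2rl3) in the 16 HSPC libraries, in CPM on a log axis that differs between panels, mutant (red circles) left of WT (blue squares), with a bar at the mean of 2 libraries. Gata1, Gfi1b and P2ry1 are highest at 2 weeks, P2ry1 at 13.5 to 22.3 CPM, against 2.31 to 4.54 CPM untreated.

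At 12 hours after doxorubicin 0 members were called against untreated HSPCs by edgeR's quasi-likelihood test, where 0.0154% of all genes were called, and the median member change was -0.08 on the log2 scale. An unadjusted p under 0.05 was found for 2 members, against 5.96% of all genes. DESeq2 called 2, with no share of all genes given for it. Selp had 14.1 and 9.21 CPM in mutant and 11.7 and 12.5 CPM in WT HSPCs after doxorubicin, against 5.98 and 5.92 CPM in mutant and 6.77 and 3.79 CPM in WT untreated HSPCs. It was the 1 member of 31 with all treated libraries higher, against 2.85% of all such genes, and 0 had all treated libraries lower, against 1.93%.

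Between Srcap mutant and WT HSPCs few members passed the test with 2 libraries a group, and most member estimates were below 0 in 3 of the 4 conditions. Members called by edgeR's quasi-likelihood test numbered 0 in untreated HSPCs, 0 after doxorubicin, 1 at 2 weeks and 0 at 20 weeks, against 0%, 0.0154%, 0.138% and 0.00512% of all genes. DESeq2 called 2, 2, 3 and 0 members in that order, and the shares just given are edgeR's, not those of DESeq2. The median log2 change, mutant over WT, was -0.22, -0.42, -0.41 and 0.07, against 0.02, 0.01, -0.02 and 0.00 for all genes. Estimates below 0 were found for 28, 25, 29 and 16 of 35 tested members, against 46.1%, 48.2%, 51.7% and 50.2% of all genes. Without TMM scaling they numbered 27, 25, 29 and 16.

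Among genes with a mean of at least 1 CPM, both mutant libraries lay below both WT ones for 9 of 29 members in untreated HSPCs (16% of all genes), 15 of 29 after doxorubicin (20.2%), 19 of 30 at 2 weeks (18.8%) and 2 of 31 at 20 weeks (10.8%). Both lay above for 1, 4, 2 and 4 members, against 26.3%, 31.3%, 14.1% and 14.3% of all genes. An unadjusted p under 0.05 was found for 4, 10, 9 and 2 members, against 4.82%, 9.79%, 8.76% and 3.8% of all genes.

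Marker lists of cell types also differed between genotypes without overlap in some conditions, and their part in the member differences was not tested. After doxorubicin the stem and progenitor markers took 0.255% to 0.270% of counts in mutant and 0.344% to 0.359% in WT libraries, B and plasma cell markers 1.24% to 1.74% in mutant and 2.75% to 2.79% in WT, and erythroid markers 0.0310% to 0.0396% in mutant and 0.0524% to 0.0539% in WT. At 2 weeks the basophil and mast cell markers took 0.0193% to 0.0203% in mutant and 0.0285% to 0.0361% in WT libraries, and stem and progenitor markers 0.111% to 0.141% in mutant and 0.143% to 0.149% in WT. In untreated HSPCs the erythroid markers took 0.0364% to 0.0485% in mutant and 0.0579% to 0.0716% in WT libraries. Not all lists were lower in mutants. T and NK cell markers were higher in untreated HSPCs (0.0187% to 0.0208%, against 0.0149% to 0.0179% in WT). They were also higher after doxorubicin, but lower at 2 weeks. Monocyte and dendritic cell markers were higher after doxorubicin and at 20 weeks, and lower in untreated HSPCs. Neutrophil markers were higher at 20 weeks and lower in untreated HSPCs, and stem and progenitor markers lower at 20 weeks.

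Gng11 was the 1 member called between genotypes in HSPCs. At 2 weeks it had 1.65 and 1.21 CPM in mutant and 4.86 and 3.83 CPM in WT HSPCs, with both mutant libraries lower (log2 change -1.54 ± 0.29, adjusted p = 0.0396). The call was lost without TMM scaling (adjusted p = 0.0628), with the 2-week HSPCs fitted alone (adjusted p = 0.999), without WT replicate 1 (adjusted p = 0.187) and without mutant replicate 1 (adjusted p = 0.0597), and over all alternatives the change stayed between -1.88 and -1.33. After doxorubicin the mutant libraries, at 11.6 and 11.9 CPM, also lay below the WT ones, at 15.1 and 14.1 CPM, and in untreated and 20-week HSPCs the genotypes overlapped, as the values above show. The genotype effect at 2 weeks minus that in untreated HSPCs was -1.49 ± 0.39 (adjusted p = 0.448).

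Averaged over the 4 conditions, the median member change was -0.28, against -0.01 for all genes, and 33 of 35 estimates were below 0, against 51.2% of all genes. Of these, 0 passed an adjusted p of 0.05 in edgeR's quasi-likelihood test, against 0.133% of all genes, and 14 had an unadjusted p under 0.05, all with lower estimates, against 9.88% of all genes. DESeq2 called 4 members, with no share of all genes given for it. The average mixes libraries headed het with the 2-week ones, which are headed Mut and differ from the others in Xist. Itga2b had the estimate -0.41 ± 0.11 (adjusted p = 0.153, and 0.0313 in DESeq2). Mutant libraries were lower without overlap in untreated HSPCs, in 2-week HSPCs and after doxorubicin, where Itga2b had 11.7 and 14.98 CPM in mutant and 16.7 and 22.5 CPM in WT HSPCs, and overlapped WT at 20 weeks. At 2 weeks its change was -0.88 ± 0.21 (adjusted p = 0.125, and 0.0179 without mutant replicate 2).

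Of the other members among these 14, the integrin chain gene Itga2 had the estimate -0.68 ± 0.18, Itgb3 -0.42 ± 0.14, F2r -0.35 ± 0.09, F2rl2 -0.60 ± 0.23, P2rx1 -0.39 ± 0.15 and Gp1ba -0.51 ± 0.24, with adjusted p of 0.153 to 0.487. The share of all genes with both mutant libraries below both WT ones in all 4 conditions was not counted. By condition it was 16% untreated, 20.2% after doxorubicin, 18.8% at 2 weeks and 10.8% at 20 weeks. The PAR3 gene F2rl2 was the 1 member with both mutant libraries below both WT ones in all 4. It had 1.69 and 1.38 CPM in mutant and 1.99 and 2.58 CPM in WT untreated HSPCs, 0.915 and 2.04 CPM in mutant and 2.37 and 2.58 CPM in WT HSPCs after doxorubicin, 6.05 and 4.44 CPM in mutant and 7.41 and 6.89 CPM in WT HSPCs at 2 weeks, and 2.12 and 2.51 CPM in mutant and 2.87 and 3.86 CPM in WT HSPCs at 20 weeks. Gp1ba stood apart after doxorubicin, with 0.648 and 0.635 CPM in mutant and 2.37 and 1.81 CPM in WT HSPCs (log2 change -1.76 ± 0.50, adjusted p = 0.224, and 0.0411 in DESeq2). The remaining 7 were Pf4 (-0.59 ± 0.19), Gng11 (-0.44 ± 0.13), Rab27b (-0.39 ± 0.15), Cd9 (-0.28 ± 0.10), Plek (-0.28 ± 0.08), Bin2 (-0.27 ± 0.08) and Nfe2 (-0.18 ± 0.08), with adjusted p of 0.198 to 0.477. Leaving out mutant replicate 2 at 2 weeks brought Itga2, Itga2b and Bin2 under the threshold (adjusted p of 0.0299 to 0.0437), leaving out mutant replicate 2 at 20 weeks brought F2r there (adjusted p = 0.0352), and leaving out untreated WT replicate 2 brought Cd9 there (adjusted p = 0.0323).

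Pf4 had 1.60 and 2.79 CPM in mutant and 5.38 and 3.85 CPM in WT HSPCs after doxorubicin and 15.8 and 18.7 CPM in mutant and 42.4 and 33.1 CPM in WT HSPCs at 2 weeks, without overlap in either. The log2 changes were -1.13 ± 0.40 and -1.10 ± 0.38 (adjusted p = 0.356 and 0.382), and at 20 weeks the genotypes overlapped. Vwf libraries of the 2 genotypes overlapped in all 4 conditions. Unlike most members, Mmrn1 had higher mutant libraries at 2 weeks (log2 change 0.75 ± 0.28, adjusted p = 0.479), and Lat had higher mutant libraries in untreated and doxorubicin HSPCs but lower ones at 2 weeks (log2 change -0.85 ± 0.19, adjusted p = 0.0928).

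Cd9 in untreated HSPCs had 37.7 and 34.7 CPM in mutant and 93.5 and 50.5 CPM in WT libraries (log2 change -1.02 ± 0.21, adjusted p = 0.376, and 0.00323 in DESeq2). The higher WT value is that of replicate 1, the neutrophil-rich library, and Cd9 reached 335 to 362 CPM in the neutrophil-rich libraries labelled T cells. Without that replicate edgeR called 0 members in untreated HSPCs, and without WT replicate 2 it called 2, Cd9 among them (adjusted p = 8.63e-05). The part of neutrophil RNA in this difference was not tested.

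No difference in the genotype effect between conditions was detectable by edgeR. The 2-week libraries also differ from the untreated ones in the header word for the mutation and in Xist, so that contrast is not of condition alone. Interaction tests of doxorubicin, 2 weeks and 20 weeks against untreated HSPCs called 0, 0 and 0 members by edgeR's quasi-likelihood test, against 0%, 0% and 0% of all genes. An unadjusted p under 0.05 was found for 5, 3 and 5 members, against 2.82%, 7.34% and 4.66% of all genes, and DESeq2 called 0, 0 and 1. Of the 56 further platelet genes 0 were called between genotypes in any of the 4 HSPC conditions by edgeR, with 9, 10, 2 and 1 at an unadjusted p under 0.05, against 4.82%, 9.79%, 8.76% and 3.8% of all genes, and with 1, 1, 0 and 0 called by DESeq2.

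**Figure D5:**
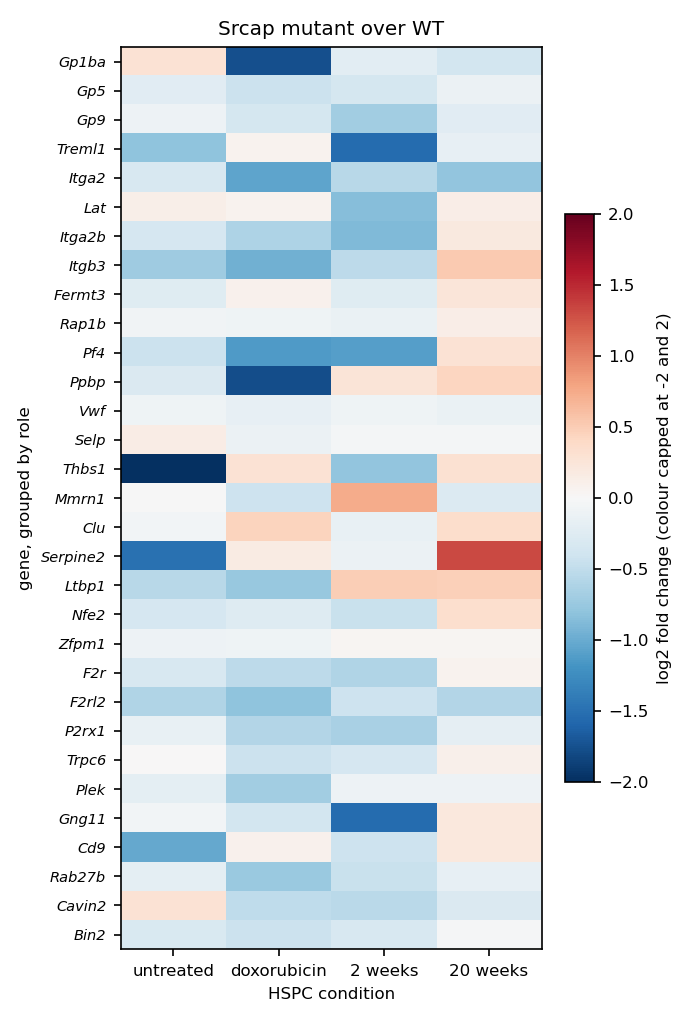
Log2 fold change, Srcap mutant over WT, of 31 members (rows, grouped by role) with a mean of at least 1 CPM in the HSPC libraries, by condition (columns), with blue for lower and red for higher in mutants and the colour capped at -2 and 2. Blue prevails in the untreated, doxorubicin and 2-week columns and not at 20 weeks, and of these values Gng11 at 2 weeks was the 1 that passed the test.

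In B cells 2 weeks after transplantation, 24 members were lower and 1 higher than in HSPCs of that time, against 25.5% and 28.3% of all genes. The median log2 change was -2.81, or -2.48 with genes without counts at their bound. F2r had 2.02 and 2.35 CPM in mutant and 2.52 and 1.49 CPM in WT B cells, against 55.9 and 59.95 CPM in mutant and 102 and 79.3 CPM in WT HSPCs (log2 change -4.98 ± 0.19, adjusted p = 1.13e-10). Selp, at 0.603 to 2.12 CPM in B cells, against 30.5 to 44.9 CPM in HSPCs, changed by -5.10 ± 0.36, Gp5 by -5.13 ± 0.49, Pf4 by -4.93 ± 0.49 and Itga2b by -4.01 ± 0.35, each lower without overlap (adjusted p of at most 1.45e-05). Ltbp1 had no count in any B cell library and was at least 65.8-fold lower, at a floor of 3 counts per library, which covers counting error only. Itgb3 was the member that was higher, with 81.01 and 75.6 CPM in mutant and 69.1 and 70.6 CPM in WT B cells, against 18.3 and 22.6 CPM in mutant and 28.7 and 31.1 CPM in WT HSPCs (log2 change 1.71 ± 0.09, adjusted p = 1.93e-09). The erythroid markers, all 12 detected, summed to 7649 to 19990 CPM in B cell libraries, against 2267 to 3286 CPM in HSPCs, and their part was not tested.

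The libraries labelled T cells, rich in neutrophil transcripts, had 10 members higher and 18 lower than 2-week HSPCs, against 32.6% and 29.3% of all genes. TMM scaling added 0.84 to each log2 change here. Higher were Thbs1 (4.95 ± 0.45), Clec1b (3.77 ± 0.91, and 7.65 without mutant HSPC replicate 2), Cd9 (3.34 ± 0.20), Itgb3 (3.05 ± 0.10), Plek (2.66 ± 0.10), Nfe2 (2.14 ± 0.13), Rap1b (1.83 ± 0.10) and Bin2 (1.81 ± 0.09), with adjusted p of at most 0.00414. Thbs1 stood at 147 and 137 CPM in mutant and 116 and 146 CPM in WT libraries labelled T cells, against 5.12 and 6.86 CPM in mutant and 11.1 and 10.1 CPM in WT HSPCs, with no overlap. The further 2, P2rx1 (1.15 ± 0.27) and Fermt3 (0.68 ± 0.14), were not called without TMM scaling, and Fermt3 then turned to -0.17.

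Platelet receptor and granule genes were among the 18 that were lower, as for Gp5 (-7.23 ± 0.58), Pf4 (-6.13 ± 0.54), F2r (-5.04 ± 0.20), Vwf (-3.48 ± 0.28) and Itga2b (-3.30 ± 0.34), with adjusted p of at most 2.93e-05. The Gp5 value was -9.59 without mutant replicate 1 of these libraries, and that of Pf4 was -7.15 without mutant replicate 2 and -6.73 without WT replicate 1. Gp9 (log2 change -1.35 ± 0.46, adjusted p = 0.0203) lost its call without WT HSPC replicate 1 and without WT replicate 2 or mutant replicate 1 of the T-labelled set (adjusted p of 0.0559 to 0.0771). Trpc6 had no count in any of these libraries and was at least 62.3-fold lower. Against B cells, 16 members were higher and 4 lower in the libraries labelled T cells, against 25.9% and 27% of all genes. Without TMM scaling, which added 0.71, 15 were higher and 9 lower, with no share of all genes given.

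Genotype called 0 members in B cells by edgeR's quasi-likelihood test, against 0.641% of all genes, and 0 in the libraries labelled T cells, against 0.0114%, with 30 members tested. An unadjusted p under 0.05 was found for 3 and 3 members, against 11% and 5.72% of all genes. DESeq2 called 2 and 0, with no share of all genes given for it. Nfe2 in B cells had 76.2 and 52.03 CPM in mutant and 114 and 91.2 CPM in WT libraries, with both mutant libraries lower (log2 change -0.69 ± 0.17, adjusted p = 0.114, 0.0128 in DESeq2 and 0.000433 without mutant replicate 1). Itga2b had 5.99 and 3.78 CPM in mutant and 9.08 and 8.82 CPM in WT B cells, also without overlap (adjusted p = 0.499). With both mutant libraries below both WT ones there were 5 of 19 members in B cells (21.8% of all genes) and 6 of 19 in the libraries labelled T cells (27.8%). Both lay above for 1, Itgb3, in B cells (22.9%) and for 0 in the libraries labelled T cells (12.3%). In B cell libraries the stem and progenitor markers took 0.00377% to 0.00398% of counts in mutant and 0.00589% to 0.00624% in WT, monocyte and dendritic cell markers 0.114% to 0.156% in mutant and 0.186% to 0.239% in WT, and basophil and mast cell markers 0.00947% to 0.0141% in mutant and 0.0175% to 0.0195% in WT. None of these 3 overlapped between genotypes, and T and NK cell markers were also lower without overlap. B and plasma cell markers (1.69% to 1.96% in mutant and 1.58% to 1.62% in WT) and endothelial and stromal markers were higher without overlap. In the libraries labelled T cells, neutrophil markers (14.99% to 15.8% in mutant and 13.8% to 14.3% in WT) and monocyte and dendritic cell markers were higher. B and plasma, T and NK, basophil and mast cell, and endothelial and stromal markers were lower there, all without overlap. The part of these lists in the member differences was not tested.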

How the data were processed

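RNA from sorted cells was made into stranded libraries, per the labels' protocols. The authors deposited raw counts per gene for each library, made with featureCounts 2.0.1 on GENCODE M28, paired and reversely stranded, without reads of several places or genes, per the file headers. FastQC, STAR and Subread are named without versions in the submitters' processing notes. Gene symbols came from GENCODE M21, which named 52081 of 55414 identifiers and 99.85% of counts. From the counts, edgeR 4.0.16 in R 4.3.3 fitted 3 sets of libraries (16 HSPC, 8 B and T, and the 12 of 2 weeks) with TMM scaling and a count minimum of 10, by its quasi-likelihood test at a Benjamini-Hochberg adjusted p under 0.05, over 17 comparisons. CPM used library totals without TMM, and TPM used exon lengths given in the same files. Each fit was first checked on simulated data. Alternatives were DESeq2 1.42.0, RLE factors, no TMM, no filter, a replicate block, no immunoglobulin genes, a fit of only the groups compared, and leaving out single libraries. Shares of all genes called are those of the main edgeR fit, and none is given for the alternatives.

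Members and lists were chosen with earlier results of these data known. Named were called members, at most 12 per direction, members with an unadjusted p under 0.05 between genotypes on average, always Itga2b, Pf4, Vwf, Gp9 and Nfe2, and the 6 further platelet genes with the largest change in each transplant comparison. One gene of the further list is not reported here. Other members are given for completeness, chosen after their values were seen. Total counts were 26369992 to 78432483 per library, and floors cover counting error only.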

Additional observations from a re-analysis of the deposited data

Results flagged for a closer look

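Among members with a mean of at least 1 CPM, the genotype difference of 7 pointed opposite ways in different cells or conditions without overlap between mutant and WT libraries. The share of all genes that did so was not counted, so 7 is not read as particular to the members. In single comparisons, 10.8% to 27.8% of all such genes were lower in mutants without overlap and 12.3% to 31.3% higher. Differences from untreated HSPCs in the other HSPC conditions were tested, with 0 members called by edgeR, and the remaining differences between effects, found in 5 of these members, were not tested. For Cd9, both mutant libraries lay above both WT ones after doxorubicin (log2 change 0.0799), and below them in HSPCs at 2 weeks (-0.41) and in B cells (-0.93). They also lay below the WT ones in untreated HSPCs (-1.02), where the difference from the effect after doxorubicin was tested and not called (adjusted p = 1). For Itgb3, both mutant libraries lay above both WT ones in HSPCs at 20 weeks (log2 change 0.52) and in B cells (0.16), and below them after doxorubicin (-0.96) and in HSPCs at 2 weeks (-0.52). For Lat they lay above in untreated HSPCs (0.12) and after doxorubicin (0.0760), and below in HSPCs at 2 weeks (-0.85) and in the libraries labelled T cells (-1.50). For Mmrn1 they lay above at 2 weeks (0.75) and below after doxorubicin (-0.42), and for Thbs1 above after doxorubicin (0.29) and below at 2 weeks (-0.80). None of the 16 changes named here passed the test between genotypes by edgeR. In Fermt3 and Serpine2 both mutant libraries lay below in untreated HSPCs and above at 20 weeks, and that difference was tested and not called by edgeR.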

How the results depend on the processing

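Leaving out any 1 of the 24 libraries moved the number of members called by edgeR between genotypes over 0 to 2 in untreated HSPCs, 0 to 4 at 2 weeks, 0 to 3 for the mean over conditions and 0 to 3 in B cells, over 0 to 1 for doxorubicin against untreated HSPCs, and over 0 to 1, 0 to 1 and 0 to 2 for the genotype effect after doxorubicin, at 2 weeks and at 20 weeks minus untreated. Without a filter on low counts the genotype counts became 3 in untreated HSPCs, 3 after doxorubicin, 5 at 2 weeks, 6 for the mean and 1 in B cells, that of doxorubicin against untreated became 2, and the interactions gave 2, 2 and 4. DESeq2 gave 2, 2, 3, 4 and 2 for the same 5 genotype counts, 2 for doxorubicin and 1 for the 20-week interaction. With the compared groups fitted alone 1 member was called after doxorubicin and 0 at 2 weeks. Without TMM scaling, an alternative chosen after seeing the data, 0 were called at 2 weeks. No share of all genes is given beside the counts of these alternatives. The cause of these shifts was not tested, other than that leaving out libraries or groups leaves fewer samples.

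Replicate numbers were taken from the titles, and those in the file headers differ. By the title numbers no pairing of libraries was seen: correlations of replicate 1 minus 2 between groups ran from -0.101 to 0.067. Pairing by the header numbers was not tested. With a replicate block 1 member was called between genotypes in B cells, and the estimates turned to 0.044 for Rab27b there and 0.13 for Gp9 in T-labelled libraries.

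Of 284 estimates of single genes followed through the alternatives, 53 changed sign under at least 1, and 1 of these, Fermt3 in T-labelled libraries against HSPCs, had passed the test. Without TMM scaling the values were -0.17 for Fermt3, -0.10 for Gp9 at 20 weeks against 2 weeks, -0.35 for Gp9 in T-labelled libraries against B cells and -0.0068 for Cd9 between genotypes in T-labelled libraries. With RLE factors or DESeq2 Nfe2 between genotypes in T-labelled libraries was 0.0098 in both, and the Vwf interaction at 2 weeks 0.0052 and 0.0053. The other turns came on leaving out 1 library, given as the lowest to the highest log2 change. Such ranges spanned 0 between genotypes in untreated HSPCs for Gng11 (-0.35 to 0.19), Gp1ba (-0.056 to 0.72), Gp9 (-0.46 to 0.18), P2rx1 (-0.37 to 0.13), Pf4 (-1.29 to 0.10), Plek (-0.46 to 0.027), Rab27b (-0.49 to 0.094) and Vwf (-0.25 to 0.12), between genotypes after doxorubicin for Gp9 (-0.89 to 0.53), between genotypes in 2-week HSPCs for Gp1ba (-0.95 to 0.25) and Vwf (-0.35 to 0.088). They did so between genotypes in 20-week HSPCs for Bin2 (-0.15 to 0.078), F2r (-0.18 to 0.27), Gng11 (-0.10 to 0.50), Gp1ba (-0.78 to 0.18), Itga2b (-0.022 to 0.43), P2rx1 (-0.60 to 0.36), Pf4 (-0.12 to 0.61), Plek (-0.25 to 0.022), Rab27b (-0.45 to 0.075) and Vwf (-0.57 to 0.20), between genotypes in B cells for Bin2 (-0.079 to 0.080), F2r (-0.20 to 0.56), Itga2 (-0.095 to 0.69), P2rx1 (-1.05 to 0.49), Pf4 (-1.11 to 0.49), Rab27b (-0.90 to 0.42) and Vwf (-1.38 to 0.016), between genotypes in T-labelled libraries for F2rl2 (-1.28 to 0.67), Gp9 (-0.75 to 0.97), Itga2b (-1.37 to 0.16), Nfe2 (-0.030 to 0.10), P2rx1 (-0.17 to 0.20) and Rab27b (-6.60 to 2.63). The same held in T-labelled libraries against B cells for Gp9 (-0.19 to 0.72) and Vwf (-0.67 to 0.033), at 2 weeks against untreated for Ptgs1 (-0.16 to 0.022), after doxorubicin against untreated for Gp9 (-0.69 to 0.015), Itga2b (-0.20 to 0.0090), Pf4 (-0.45 to 0.24) and Vwf (-0.023 to 0.16). Others did so in the genotype effect after doxorubicin minus untreated for Gp9 (-0.79 to 0.63), Nfe2 (-0.0077 to 0.18), Pf4 (-1.22 to 0.16) and Vwf (-0.28 to 0.093), in the genotype effect at 2 weeks minus untreated for Nfe2 (-0.30 to 0.024), Pf4 (-1.20 to 0.19) and Vwf (-0.26 to 0.16), in the genotype effect at 20 weeks minus untreated for Gp9 (-0.40 to 0.24) and Vwf (-0.50 to 0.28). Leaving out a library leaves 1 in its group, which is then assumed to vary like the other groups, and low members such as Gp6, Gp1bb and Clec1b are limited by depth.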
